A study of Mus musculus with 5 samples.

Results

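The genes described here are 10 genes of mast cells, basophils and eosinophils: Epx, Prg2, Fcer1a, Ms4a2, Fcer1g, Cpa3, Mcpt8, Hdc, Kit and Srgn. They were taken by name, and each probe set that the platform annotation pairs with 1 of these symbols was used, which gave 13 probe sets of the 45101 on the array. Of these genes 7 had 1 probe set, while Ms4a2, Hdc and Kit had 2 each. The names were chosen from earlier results of these same arrays, in which the log2 values of Epx, Fcer1a, Cpa3 and Mcpt8 differed between constructs, so every difference below is a description and none was tested.

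The arrays came from 32D cells, a mouse myeloid progenitor line that normally needs interleukin-3, stably transduced by retrovirus with a FLT3-ITD construct. FLT3, a growth factor receptor of early blood cells, is a tyrosine kinase that becomes active without ligand when part of it is repeated in tandem (an internal tandem duplication, ITD). The 5 constructs were ITD613, ITD78, ITD598, ITD602 and ITD611, with 1 array each, and the labels do not say what the numbers stand for or whether the cells of a construct were a clone or a pool. All 5 groups shared 3 h of starvation and 1 h with a tyrosine kinase inhibitor (TKI) that the labels do not name. No array of cells without a construct and no repeat array was analysed here. The study compared FLT3-ITD variants with each other, and the question here is whether its arrays differed in these granule, receptor and protease genes.

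Mast cells and basophils carry the high-affinity IgE receptor, which is built from an IgE-binding alpha chain, a signal-amplifying beta chain and a pair of gamma chains, and they release stored histamine and proteases when it is cross-linked. Eosinophils store a peroxidase and basic proteins that damage parasites. All of them arise from progenitors in bone marrow, mast cells also need the stem cell factor receptor KIT, and GATA-1, GATA-2 and C/EBP factors take part in their choice of fate.

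The values are log2 RMA values, RMA being a method that corrects the background, normalises the arrays to each other and gives 1 value per probe set. The arrays had nearly equal medians, from 1.99 to 2.06. Low values are stepped: a value common to 100 or more probe sets of the same array was held by 23.7% to 30.3% of the probe sets, and 3.74 was the highest of these common values. Values at or below 3.74 are therefore called low here, and a difference that reaches into this range cannot be sized. ITD598, ITD602 and ITD611 were the arrays most alike in earlier results of these data, and their mean is called the 3-array mean below; an SD beside it is the spread over these constructs, not over replicates. Precision is limited by the single array per construct. The title of the ITD602 array carries another date-like string than the other titles; the labels do not say what it denotes, and it cannot be told apart from the construct.

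The 10 genes did not move as a group. Epx, Fcer1a, Prg2 and Cpa3 read highest on the ITD613 array, Mcpt8 read lowest on the ITD78 array, Fcer1g and Srgn were high on every array, and Kit, Ms4a2 and Hdc were low on every array. Of the representative probe sets (the one with the highest mean of its gene), 5 ranged over at least 2-fold and 5 over less. Epx and Fcer1a were at least 2-fold higher on ITD613 than on every other array, which makes 2 of 10 members; with values below 3.74 raised to that level the distance was 1.44 for Epx but 0.23 for Fcer1a, which was then no longer 2-fold. Over all 9621 genes that passed the low-value filter (a highest value of at least 2.75), which 8 of the 10 members passed, 1.31% were so, and 0.925% were set apart lower, as no member was. Mcpt8 alone was at least 2-fold lower on ITD78 than on every other array, beside 0.052% of all genes. The members were chosen for such values, so nothing is read from these shares. In bulk RNA, fewer cells of a type and less RNA per cell cannot be told apart.

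**Figure D1:**
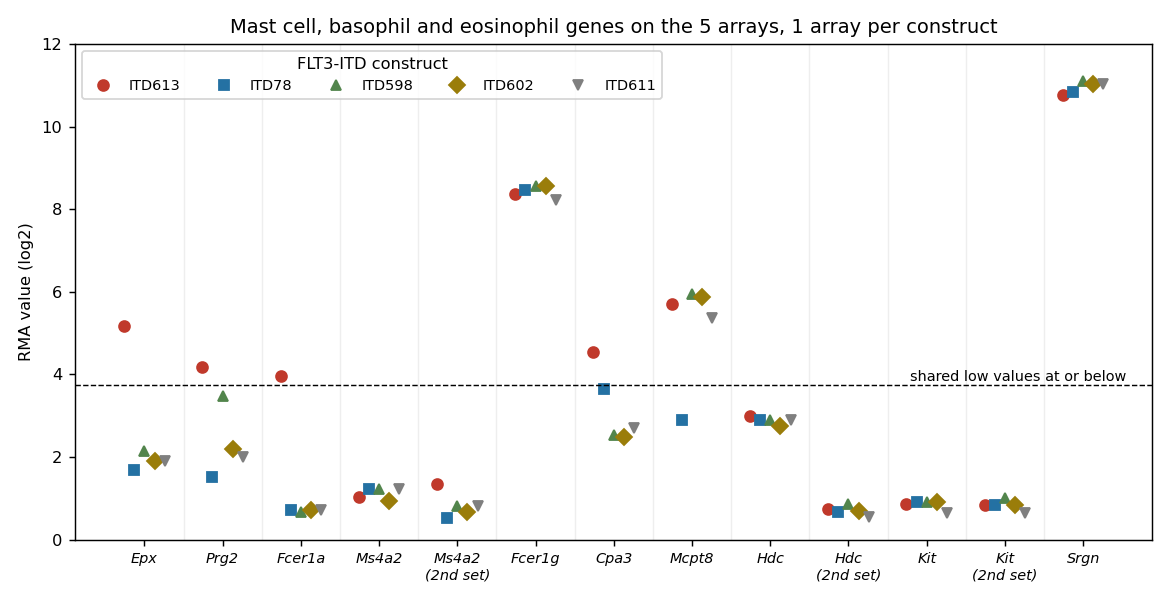
Log2 RMA value (y axis) of the 13 probe sets of the 10 genes (x axis) on each array, 1 point per construct; the dashed line marks 3.74, at or below which many probe sets of an array share a value. Epx, Prg2, Fcer1a and Cpa3 have their ITD613 point on top, Mcpt8 has a single low point from ITD78, and the points of Fcer1g and Srgn lie close together far above the line.

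Epx encodes eosinophil peroxidase, a haem enzyme of the eosinophil granule. Its probe set read 5.18 on the ITD613 array, against 1.68 on ITD78, 2.14 on ITD598, 1.90 on ITD602 and 1.90 on ITD611. Only the ITD613 value lay above the low range, and it stood 3.04 above the nearest array. Against the 3-array mean of 1.98 ± 0.14 (SD, n = 3 arrays) the difference was 3.20. With values below 3.74 raised to that level the difference was 1.44, still over 2-fold.

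Prg2 encodes eosinophil major basic protein, the main protein of the granule core. It read 4.17 on the ITD613 array, against 1.53 on ITD78, 3.47 on ITD598, 2.20 on ITD602 and 2.01 on ITD611. ITD613 was again the highest, but here ITD598 came within 2-fold of it, at a distance of 0.70. Prg2 was the only member whose deposited values differed at least 2-fold among the 3 like arrays, ITD598 against ITD602 and against ITD611; over all genes 0.26% and 0.125% differed by 2-fold in these pairs, and 0.218% did between ITD602 and ITD611, where no member did. These 3 Prg2 values all lie in the low range, so the differences cannot be sized. The ITD613 value alone was above 3.74, and with low values raised the difference from the 3-array mean shrank to 0.43 from the deposited 1.61.

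Most other eosinophil genes lay in the low range, where no difference can be sized. Of 12 listed granule and surface genes of eosinophils, 7 were measured and 2 reached the low-value filter. Prg3, which encodes a homologue of major basic protein, read 1.99 on ITD613, against 1.66 on ITD78, 1.75 on ITD598, 1.55 on ITD602 and 1.55 on ITD611. Il5ra, the receptor chain for the eosinophil growth factor interleukin-5, stayed between 1.02 and 1.18, and Ccr3, the eotaxin receptor, between 0.33 and 0.84. The eosinophil ribonuclease gene Ear2 was not analysed here. Siglecf, a sialic acid-binding receptor of mouse eosinophils, read 5.51 on ITD613 and 5.18 on ITD78, against 5.91 ± 0.23 in the 3-array mean. Adgre1, which encodes the F4/80 antigen of macrophages and mouse eosinophils, read 2.68 on ITD613 and 3.00 on ITD78, against 6.88 ± 0.35. The ITD613 array thus had the highest Epx and Prg2 beside low Il5ra and Ccr3, which lay in the low range on all 5 arrays.

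Fcer1a encodes the alpha chain of the high-affinity IgE receptor, the part that binds IgE. It read 3.96 on the ITD613 array, against 0.72 on ITD78, 0.67 on ITD598, 0.72 on ITD602 and 0.72 on ITD611. The ITD613 value was the only one above the low range and passed its upper edge by 0.23, so the difference of 3.26 from the 3-array mean cannot be sized. Epx and Fcer1a passed the low-value filter through the ITD613 array alone.

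Ms4a2 encodes the beta chain, which traverses the membrane and amplifies the signal. Its probe set with the higher mean read 1.04 on ITD613, against 1.22 on ITD78, 1.22 on ITD598, 0.95 on ITD602 and 1.22 on ITD611. Its other probe set read 1.35 on ITD613, against 0.52 on ITD78, 0.81 on ITD598, 0.67 on ITD602 and 0.81 on ITD611. Both were low on every array, and they disagreed on ITD613, where the first lay 0.09 below the 3-array mean and the other 0.59 above it.

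Fcer1g encodes the gamma chain, which mast cells share with macrophages and natural killer cells because Fc gamma receptors use it too. It read 8.36 on ITD613, against 8.47 on ITD78, 8.57 on ITD598, 8.57 on ITD602 and 8.22 on ITD611. Its whole range was 0.35, and ITD613 lay inside it. On the ITD613 array, then, the alpha chain value passed the edge of the low range by 0.23 and the beta chain values lay within it. The gamma chain read as on the other arrays. Values of different probe sets do not rank the chains by amount.

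The promoters of the alpha and beta chain genes are shown because on ITD613 the first read just above the low range and the other within it. Epx is shown because it and Fcer1a had the most similar profiles among the members that ranged over 2-fold. Cpa3 is added as another gene highest on ITD613. Sequences are from RefSeq on GRCm38.p6, 250 bases before to 50 bases after a transcript start, written 5′ to 3′ along the gene, and capitals mark each match to the GATA motif (AGATAA and also AGATAG, likewise TGATAA and lastly TGATAG, read on both strands).
Fcer1a, chr1:173227180-173227479, minus strand: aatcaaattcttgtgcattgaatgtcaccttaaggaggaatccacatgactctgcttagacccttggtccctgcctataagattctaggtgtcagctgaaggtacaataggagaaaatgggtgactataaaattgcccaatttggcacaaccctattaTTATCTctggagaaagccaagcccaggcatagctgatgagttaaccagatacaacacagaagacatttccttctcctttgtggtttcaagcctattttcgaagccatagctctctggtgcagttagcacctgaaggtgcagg
Ms4a2, chr19:11623670-11623969, minus strand: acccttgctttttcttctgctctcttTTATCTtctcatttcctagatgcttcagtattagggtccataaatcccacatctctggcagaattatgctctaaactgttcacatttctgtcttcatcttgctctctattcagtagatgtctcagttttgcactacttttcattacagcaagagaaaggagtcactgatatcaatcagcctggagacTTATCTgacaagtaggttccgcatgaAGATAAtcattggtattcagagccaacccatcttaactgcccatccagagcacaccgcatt
Cpa3, chr3:20242132-20242431, minus strand: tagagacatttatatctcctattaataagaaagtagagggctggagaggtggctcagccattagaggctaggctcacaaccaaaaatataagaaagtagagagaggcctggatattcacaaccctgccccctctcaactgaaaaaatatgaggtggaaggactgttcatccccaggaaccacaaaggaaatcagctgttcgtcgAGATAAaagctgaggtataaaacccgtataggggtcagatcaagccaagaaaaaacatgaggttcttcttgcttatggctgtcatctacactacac
Epx, chr11:87875487-87875786, minus strand: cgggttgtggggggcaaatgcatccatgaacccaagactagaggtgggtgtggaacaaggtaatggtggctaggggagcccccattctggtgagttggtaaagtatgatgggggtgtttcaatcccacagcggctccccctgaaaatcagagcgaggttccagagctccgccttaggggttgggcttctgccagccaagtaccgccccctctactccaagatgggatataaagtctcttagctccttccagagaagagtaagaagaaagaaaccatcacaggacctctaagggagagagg

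The Fcer1a window held 1 GATA match, beginning 92 bases before the start, the Ms4a2 window 3 and the Cpa3 window 1, beginning 46 bases before the start. The Epx window held none. Promoter windows were found for 9 of the 10 genes, 11 windows in all. A GATA match lay in 4 of these 11 windows, that of Hdc being the other. The 2 Kit windows overlap almost wholly, so the windows are not all separate sequences. By gene, 4 of the 9 had a GATA match. Of all 32851 promoter windows searched, 29.8% had one. A C/EBP-type motif (TTGCNNAA, both strands) lay in the Fcer1a window only, and 10.8% of all windows had it. The STAT motif TTCNNNGAA was in none of the 11 windows and in 8.3% of all. Matches of different motifs did not overlap. A match describes letters in this window and says nothing about binding.

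**Figure D2:**
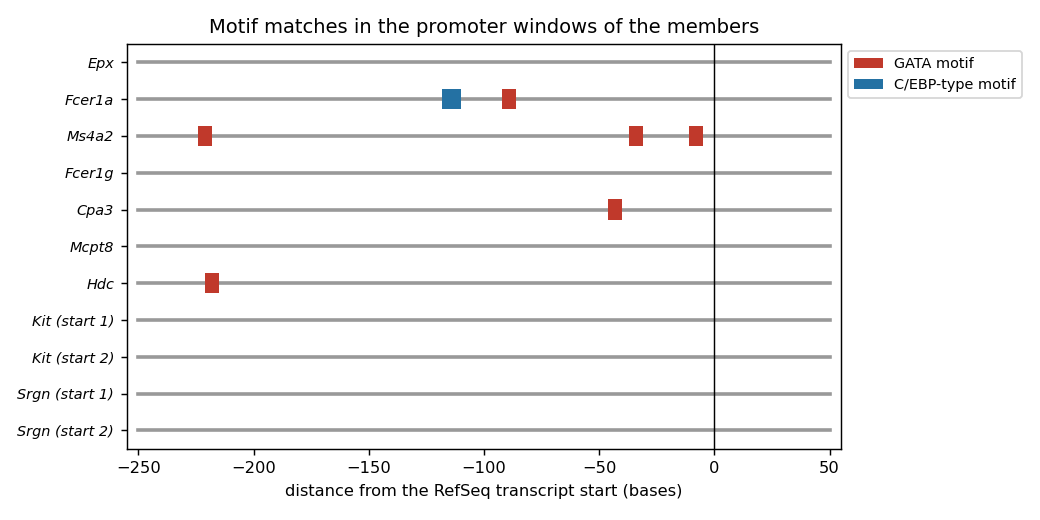
Matches of the GATA and C/EBP-type motifs (coloured blocks) in the RefSeq promoter windows of 9 members (rows), plotted by distance in bases from the transcript start. Ms4a2 carries 3 GATA matches, Fcer1a, Cpa3 and Hdc 1 each, and the rows of Epx, Fcer1g, Mcpt8, Kit and Srgn are empty.

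Signalling genes downstream of the IgE receptor were mostly alike on all arrays. Of 21 listed, 19 were measured and 16 reached the filter; on ITD613 none was at least 2-fold higher than the 3-array mean, 2 were lower and 14 lay within 2-fold, with a median difference of -0.04. Over all 9621 genes 3.87% were higher and 2.98% lower in this comparison, with a median of 0.01. On ITD78 all 16 lay within 2-fold, with a median of -0.02.

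Syk, the kinase that binds the phosphorylated gamma chain, read 4.80 on ITD613 and 4.71 on ITD78, against 5.11 ± 0.16 in the 3-array mean. The adaptor gene Lat2 read 2.95 on ITD613 and 3.77 on ITD78, against 4.50 ± 0.19, with 2 of its 3 probe sets lower on ITD613. With low values raised its ITD613 difference was -0.76, under 2-fold. Ptpn6, which encodes the inhibitory phosphatase SHP-1, read 6.30 and 7.21 on these arrays, against 7.43 ± 0.11. Lat, a scaffold for signalling complexes at the membrane, read 4.98 on ITD613 and 6.42 on ITD78, against 5.64 ± 0.31, so that these arrays lay on opposite sides of the mean. Lyn, the kinase that starts the cascade, was not analysed here.

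Cpa3 encodes mast cell carboxypeptidase A, a granule protease of mast cells that basophils and their progenitors also express. It read 4.56 on ITD613, against 3.66 on ITD78, 2.53 on ITD598, 2.48 on ITD602 and 2.72 on ITD611. ITD613 stood 0.90 above ITD78, just under the 2-fold rule, and ITD78 in turn lay above the 3 like arrays. Against the 3-array mean of 2.58 ± 0.12 the differences were 1.98 on ITD613 and 1.08 on ITD78. Only the ITD613 value was above the low range, and with low values raised these differences were 0.82 and 0.

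Mcpt8 encodes a granule protease that marks mouse basophils. It read 2.90 on ITD78, against 5.70 on ITD613, 5.94 on ITD598, 5.88 on ITD602 and 5.36 on ITD611. ITD78 was alone in the low range, 2.46 below the nearest array, while the other 4 values did not differ by 2-fold. Against the 3-array mean of 5.72 ± 0.32 the ITD78 difference was -2.82, and -1.99 with low values raised, whereas ITD613 differed by -0.02.

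The connective tissue and mucosal mast cell proteases were in the low range. Chymase (Cma1) stayed between 0.85 and 1.22 over the 5 arrays, Mcpt4 between 1.66 and 2.08, and the tryptases Tpsab1 and Tpsb2 between 1.02 and 1.22 and between 1.15 and 1.33. Of 14 listed protease genes other than the members, 11 were measured and 4 reached the filter. Among these 4, none was at least 2-fold higher than the 3-array mean on ITD613 or on ITD78. Lower on both were 2, beside 2.98% of all genes on ITD613 and 1.08% on ITD78.

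Those 2 were Gzmb, which encodes the cytotoxic protease granzyme B, and Ctsg, which encodes cathepsin G of neutrophil and mast cell granules. Gzmb read 3.98 on ITD613 and 5.44 on ITD78, against 7.06 ± 0.19. Ctsg read 6.24 on ITD613 and 7.42 on ITD78, against 9.01 ± 0.21. Ctsc, the protease that activates such granule enzymes, read 8.92 on ITD613 and 9.50 on ITD78, against 9.92 ± 0.11, and the lysosomal protease gene Ctsd read 6.67 and 5.93, against 5.83 ± 0.08.

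**Figure D3:**
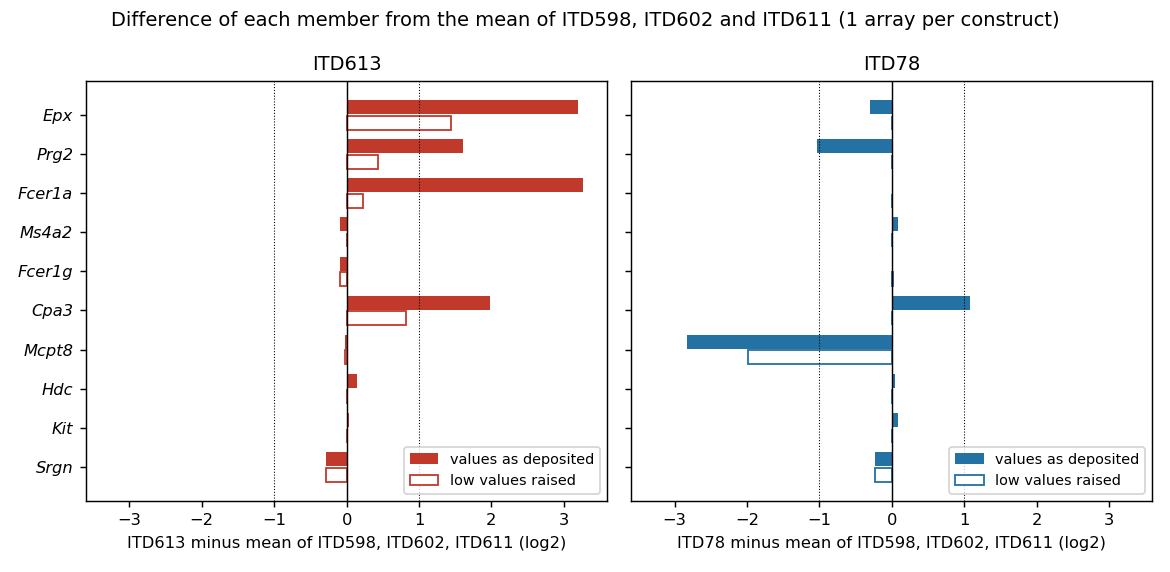
Difference in log2 RMA value of ITD613 (left) and of ITD78 (right) from the mean of ITD598, ITD602 and ITD611 for the 10 genes; filled bars use the deposited values, open bars values with everything below 3.74 raised to that level, and dotted lines mark 2-fold. On ITD613 the filled bars of 4 genes pass 2-fold and the open bar of Epx alone does; on ITD78 the Mcpt8 bars pass it both ways.

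Hdc encodes histidine decarboxylase, which makes histamine. Its probe set with the higher mean read 2.98 on ITD613, against 2.89 on ITD78, 2.91 on ITD598, 2.74 on ITD602 and 2.89 on ITD611, and the other stayed between 0.56 and 0.86. Both were in the low range on all arrays, with ranges of 0.24 and 0.30. Both Hdc probe sets have the suffix that marks probes able to match more than a single transcript.

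Srgn encodes serglycin, the proteoglycan core on which mast cells, basophils and other granulocytes pack proteases and histamine. It read 10.78 on ITD613, against 10.83 on ITD78, 11.10 on ITD598, 11.04 on ITD602 and 11.04 on ITD611. Both ITD613 and ITD78 lay below the 3 like arrays, by 0.28 and 0.23 from their mean, far less than 2-fold. Other cells of the blood also make serglycin, so its level is not specific to these lineages.

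Of 23 listed genes for making and storing mediators, 18 were measured and 15 reached the filter. On ITD613 none was at least 2-fold higher than the 3-array mean, 2 were lower and 13 were within 2-fold; on ITD78 1 was higher, 2 lower and 12 within. Over all genes 3.87% were higher and 2.98% lower on ITD613, and 0.717% and 1.08% on ITD78. Slc18a2, the vesicular transporter that loads histamine and serotonin, read 8.02 on ITD613 and 7.98 on ITD78, against 7.49 ± 0.04. Ltc4s, the leukotriene C4 synthase gene, read 2.47 and 2.39, against 3.72 ± 0.30, values in or near the low range. Alox5, the first enzyme of leukotriene synthesis, read 5.23 on ITD613 and 6.20 on ITD78, against 5.12 ± 0.05, and was the gene higher on ITD78. Ddc, the decarboxylase that makes serotonin, read 2.09 on ITD613 and 4.56 on ITD78, against 6.50 ± 0.23, but its 2 probe sets disagreed in sign on both arrays. Gusb, a lysosomal enzyme gene, read 6.86 and 7.28, against 7.77 ± 0.16, and Snap23, a membrane fusion gene used in degranulation, read 6.53 and 6.05, against 5.81 ± 0.14.

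Kit encodes the receptor for stem cell factor, on which mast cells depend. Its probe set with the higher mean read 0.86 on ITD613, against 0.92 on ITD78, 0.92 on ITD598, 0.92 on ITD602 and 0.66 on ITD611, and its other probe set stayed between 0.66 and 1.01. Both were in the low range on every array, and on 4 arrays the first had one of the common values described above. The ITD613 array, with the highest Fcer1a and Cpa3 values, thus had no Kit value above the low range.

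Among 19 listed receptor and surface genes of mast cells and basophils, 16 were measured and 8 reached the filter. On ITD613 none was at least 2-fold higher than the 3-array mean and 3 were lower, with a median difference of -0.54. On ITD78 none was higher and 2 were lower, with a median of -0.72. Over all genes 3.87% were higher and 2.98% lower on ITD613, and 0.717% and 1.08% on ITD78. Il3ra, the alpha chain of the interleukin-3 receptor, stayed between 3.50 and 3.69 on all arrays, at the upper edge of the low range. Csf2rb2 and Csf2rb, its signalling beta chains, read 5.12 and 6.71 on ITD613, against 7.54 ± 0.34 and 8.30 ± 0.30 in the 3-array mean, and on ITD78 they differed from it by -1.92 and -1.29. These genes resemble each other in sequence, so their probe sets may share signal. Il18r1, a receptor chain for interleukin-18, read 3.63 on ITD613 and 4.73 on ITD78, against 5.49 ± 0.09, and Il4ra, the interleukin-4 receptor chain, read 3.61 and 3.81, against 4.49 ± 0.17. Cd200r1, an inhibitory receptor, read 3.77 and 3.08, against 3.97 ± 0.09.

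Cytokine genes of these cells were mostly low. Of 11 listed, 5 passed the filter, and Il4 and Il13, the type 2 cytokines of mast cells and basophils, read 0.86 on every array and between 1.79 and 1.97. Il6, an inflammatory cytokine, read 5.43 on ITD613 and 3.78 on ITD78, against 3.11 ± 0.02. The 3 like arrays lie in the low range for Il6. With low values raised its differences were 1.69 on ITD613 and 0.04 on ITD78. Ccl3, a chemokine, read 2.87 and 1.92, against 4.51 ± 0.39, and with low values raised both differences were -0.77, under 2-fold. The chemokine genes Ccl6 and Ccl9 read 3.79 and 7.84 on ITD613, against 3.12 ± 0.40 and 7.43 ± 0.11, while Ccl4 stayed between 2.59 and 3.10. With low values raised the Ccl6 difference on ITD613 was 0.05.

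Transcription factor genes of the lineages differed in both directions. Of 18 listed, 16 passed the filter. On ITD613 3 were at least 2-fold higher than the 3-array mean, 4 were lower and 9 were within 2-fold. On ITD78 none was higher and 2 were lower. Over all genes 3.87% were higher and 2.98% lower on ITD613, and 0.717% and 1.08% on ITD78. Gata1, needed for eosinophil, mast cell and red cell development, read 8.14 on ITD613 and 7.01 on ITD78, against 6.06 ± 0.22. Gata2, a factor of progenitors, mast cells and basophils, read 7.22 on ITD613 and 7.88 on ITD78, against 8.18 ± 0.16. Among the arrays, ITD613 had the highest Gata1 and the lowest Gata2 value, and its Gata2 difference of -0.96 was under 2-fold. Tal1, another listed factor gene, was also highest on ITD613, 1.21 above the 3-array mean. The Epx promoter window held no GATA match, and Ms4a2, whose window held 3, was low on every array. Whether any of these factors is linked to the Epx and Fcer1a values was not tested. Stat5a, a signal transducer of cytokine receptors, read 4.89 on ITD613 and 4.07 on ITD78, against 3.45 ± 0.18. The 3 like arrays lie in the low range for Stat5a. With low values raised its differences were 1.15 on ITD613 and 0.33 on ITD78.

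Mitf, the factor that mast cells need, read 1.90 on ITD613 and 1.79 on ITD78, against 3.87 ± 0.20. The ITD613 and ITD78 values are low, and with low values raised both Mitf differences were -0.13. Of its 2 probe sets 1 was lower on ITD613. Tfec, a relative of Mitf, read 2.45 on ITD613 and 3.65 on ITD78, both in the low range, against 4.88 ± 0.13. With low values raised both Tfec differences were -1.14. Id2, an inhibitor of E-protein factors, read 5.01 on ITD613 and 6.68 on ITD78, against 6.90 ± 0.27. Runx1, a factor of blood stem cells and granulocytes, read 4.03 on ITD613 and 4.86 on ITD78, against 5.20 ± 0.21, but of its 6 probe sets only 2 were lower there.

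**Figure D4:**
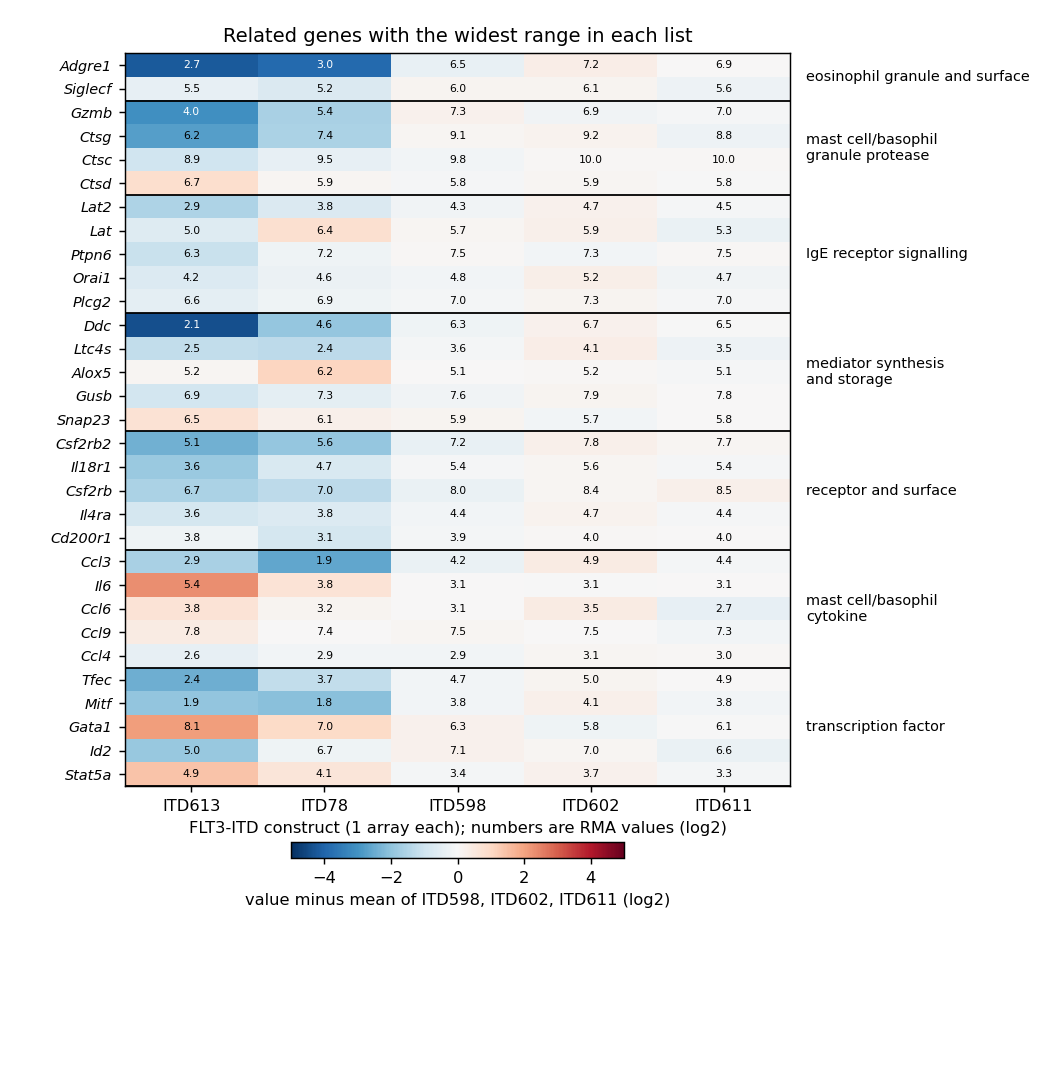
Up to 5 genes with the widest range in each list of related genes (rows) on the 5 arrays (columns, 1 array per construct), with the log2 RMA value written in the cell and coloured by its difference from the mean of ITD598, ITD602 and ITD611. On ITD613 Il6, Gata1 and Stat5a read higher, and Adgre1, Ddc, Gzmb and Ctsg lower.

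The 7 lists of related genes named 118 genes in all; 100 were on the array with a probe set of their own and 66 of them passed the filter. Of these 66, 4 were at least 2-fold higher and 15 lower on ITD613 than the 3-array mean, with a median of -0.15. On ITD78 1 was higher and 10 lower, with a median of -0.10. With low values raised 11 were lower on ITD613 and 7 on ITD78, and those higher stayed at 4 and 1. Of the 10 members, 4 were higher and none lower on ITD613 (Epx, Prg2, Fcer1a and Cpa3), beside 3.87% and 2.98% of all genes; with low values raised Epx alone was 2-fold higher. On ITD78 Cpa3 was higher and Prg2 and Mcpt8 lower, beside 0.717% and 1.08% of all genes. The Cpa3 and Prg2 values behind these ITD78 calls all lie in the low range, and with low values raised both differences were 0, while without the ITD598 array the Prg2 difference was -0.58. Both comparisons use the same 3 arrays. In the direct comparison of ITD613 with ITD78, Epx, Fcer1a, Mcpt8 and Prg2 were at least 2-fold higher on ITD613 and no member was 2-fold lower; 1.7% of all genes were higher by 2-fold and 1.26% lower. The ITD78 values of these 4 genes all lie in the low range. With low values raised the differences were 1.44 for Epx, 1.96 for Mcpt8, 0.43 for Prg2 and 0.23 for Fcer1a, so Epx and Mcpt8 stayed 2-fold higher and the others did not.

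**Figure D5:**
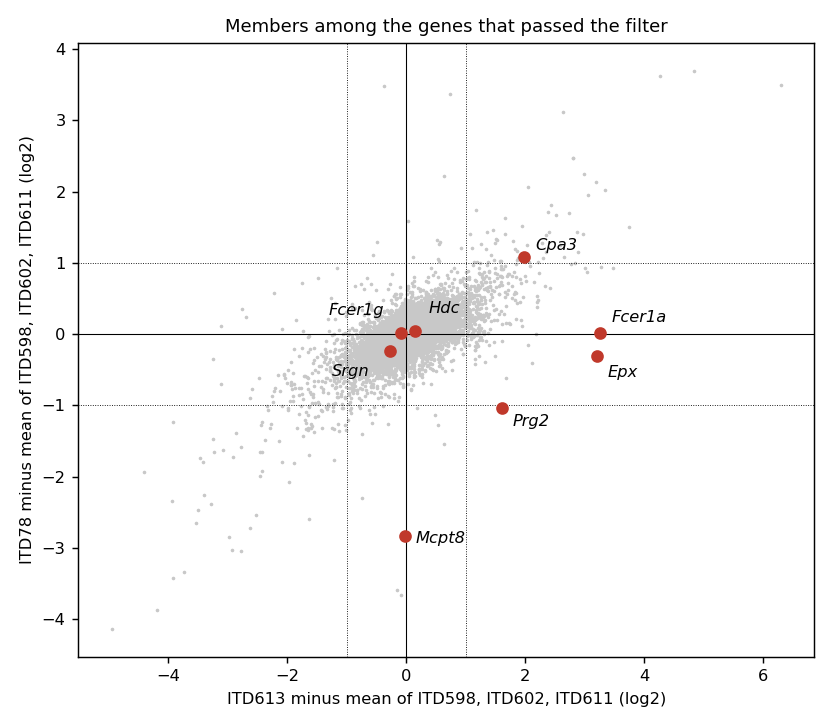
Difference in log2 RMA value from the mean of ITD598, ITD602 and ITD611 for ITD613 (x axis) and for ITD78 (y axis) for each of the 9621 genes that passed the filter (grey), with the 8 members among them in red and dotted lines at 2-fold. Both axes subtract the same 3 arrays. Epx and Fcer1a lie far right near zero on the y axis, Mcpt8 lies far down near zero on the x axis, and Cpa3 is to the right and up.

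Profiles were also compared after centring each gene on its own mean over the 5 arrays, with the root mean square distance as the measure of likeness. Epx and Fcer1a were nearest to each other among all 9621 genes, at 0.17, which follows from both being low on every array but ITD613. Zbtb26, a zinc finger gene, and H3f3b, a histone gene, came next to Epx at 0.43 and 0.46. For Fcer1a these were Mfsd2b, a lipid exporter gene of red cells, at 0.39 and the antiproliferative gene Btg2 at 0.40. Prg2 was nearest to Rgs10, a regulator of G-protein signalling, at 0.23, with Aqp9, a channel gene, at 0.49 and Trp53inp1, a p53 target, at 0.54. The Rgs10 probe set read 4.55 on ITD613, 1.90 on ITD78, 3.41 on ITD598, 2.78 on ITD602 and 2.58 on ITD611; like those of Prg2, all but the ITD613 value lie in the low range, so their order says little.

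Cpa3 was nearest to Ssx2ip, Neat1 and Dclre1a, at 0.09, 0.11 and 0.11. All Cpa3 values but that of ITD613 lie in the low range, so the steps of its profile cannot be sized. Mcpt8 was nearest to Ms4a3, a gene of granulocyte progenitors, at 0.54, Nabp1 at 0.64 and Otulinl at 0.68. Ms4a3 read 2.63 on ITD78, against 4.18 on ITD613, 5.74 on ITD598, 5.05 on ITD602 and 4.01 on ITD611. With 5 arrays that fall into few patterns, many genes have like profiles, and the distances are given as descriptions.

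Markers of other blood cells moved on the same arrays. Beside the counts below, 3.87% of all genes were at least 2-fold higher and 2.98% lower than the 3-array mean on ITD613. On ITD78 these shares were 0.717% and 1.08%. Of 7 erythroid markers 4 passed the filter, and Klf1 and Ermap were higher on both ITD613 and ITD78: Klf1, the erythroid factor, read 10.01 and 8.44, against 7.04 ± 0.34, and Ermap, a red cell membrane gene, 4.96 and 3.86, against 1.91 ± 0.15. With low values raised the Ermap difference was 1.22 on ITD613 and 0.12 on ITD78, so its ITD78 call rests on the low range. The 5 erythroid markers with a probe set had a summed linear level of 2068 on ITD613 and 1164 on ITD78. The other arrays had 851 to 900. Klf1 and Tfrc made up most of each sum. Tfrc, the transferrin receptor gene, read 9.96 on ITD613 and 9.63 on ITD78, against 9.52 ± 0.03, within 2-fold. Hba-a1, an adult globin gene, and Epor, the erythropoietin receptor gene, were low on all arrays. Of 11 neutrophil markers 7 passed, and 5 were lower on ITD78, S100a8 (2.49, against 6.08 ± 1.88), S100a9 (2.11, against 5.76 ± 1.84), Mpo, Ngp and Prtn3. The 3 like arrays were not alike here. On ITD611 S100a8 read 3.98, S100a9 3.77, Mpo 5.00 and Ngp 3.99, and on ITD598 7.61, 7.39, 6.55 and 6.69. Ngp also read 3.99 on ITD78. Prtn3 was lower on both ITD613 and ITD78 (5.55 and 5.83, against 7.15 ± 0.32). Elane, the elastase gene, Ltf, Camp and Fcnb were in the low range on all arrays. The summed linear level of the 9 neutrophil markers with a probe set was 290 on ITD613 and 131 on ITD78, against 214 to 731.

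Of 8 monocyte and macrophage markers 4 passed, and Adgre1, Fcgr1 and Csf1r were lower on ITD613, beside 2.98% of all genes. Lyz2, the other that passed, read 4.89 on ITD613 and 5.02 on ITD78, against 4.85 ± 0.14. The listed markers with a probe set summed to 58.7 on ITD613 and 74.0 on ITD78, against 183 to 261. Adgre1 was the largest part of the sum on the 3 like arrays. Csf1r read 2.54 on ITD613, against 3.76 ± 0.17; with low values raised its difference was -0.07, and of its 3 probe sets 2 were lower there. Cd14, Cd68 and Cx3cr1 were low on all arrays. Of 6 megakaryocyte markers Gp9 was higher and Pf4 and Selp lower on ITD613, and Gp9 and Vwf were higher on ITD78. Pf4 read 3.09 and Selp 2.99 on ITD613, both in the low range. With low values raised their differences were -2.60 and -2.02. The list summed to 491 on ITD613 and 728 on ITD78, against 420 to 505. Itga2b, within 2-fold on both arrays, made up most of each sum, so the sums hide these opposite directions. Lymphoid markers were low throughout, with sums of 28.7 to 29.9 on all 5 arrays. The part of these other lineages in the values of the 10 genes was not tested.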

How the data were processed

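Total RNA of 5 cell populations was labelled with biotin and hybridised to mouse expression arrays, 1 per construct. The authors deposited log2 values from RMA, per the submitters' processing notes; its software, version and chip definition are not given in the sources used here. Base 2 was inferred, since values ran from -0.07 to 13.45 and the scanner maximum has a natural log of 11.09. Of 45101 probe sets, 34958 had 1 gene symbol in the platform annotation, 932 several and 9211 none; 64 were controls. The probe set with the highest mean stood for its gene (18193 genes), and the low-value filter kept 9621 genes whose highest value reached 2.75, the 60th percentile of the table. A call is a log2 difference of at least 1 (2-fold). With 1 array per construct there were 0 residual degrees of freedom and no test. The rules were run on simulated data, random noise with added shifts. These data lacked stepped low values, so the run says nothing about the low range. Python 3.11.15, numpy 2.4.6 and pandas 2.3.3 were used.

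The members, the 7 related lists and the marker lists were chosen with earlier results of these data known. Named were all members, up to 5 genes per list with the widest range, 14 lineage genes whatever their values, up to 5 markers per other cell type, and the 3 nearest profiles of members ranging over 2-fold. Alternatives were averaging the probe sets of a gene, no probe sets ending in _x_at or _s_at, low values raised to 3.74, no filter or one at the 80th percentile, array medians subtracted, quantile normalization again, rules of 1.5-fold and 4-fold, and each array left out.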

Additional observations from a re-analysis of the deposited data

How the results depend on the processing

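The low range and the rule of size decided most counts. With low values raised to 3.74, Epx alone was set apart on ITD613 (1 member, against 2), and the members higher than the 3-array mean numbered 1 on ITD613 (against 4) and 0 on ITD78 (against 1), with 1 lower on ITD78 (Mcpt8; against 2). The filter at the 80th percentile, which drops genes, gave these same counts of 1, 1, 0 and 1, and left 6 related genes lower on ITD78 (against 10). Under the 1.5-fold rule 4 members were set apart on ITD613, the related genes higher were 11 on ITD613 and 7 on ITD78, and those lower on ITD78 were 17. Under the 4-fold rule 2 members were higher on ITD613, 0 were higher and 1 lower on ITD78, and related genes were 2 higher and 6 lower on ITD613 and 0 higher and 3 lower on ITD78. Without the low-value filter 2 related genes were higher on ITD78, and without the ITD598 array 2 were higher and 1 member (Mcpt8, not Prg2) was lower there. The other 125 of 148 recomputed counts stayed within 1.5 times, a rule that passes 3 against 2. Members set apart on ITD613 were 3 without the ITD78 array, where Cpa3 joined. They were also 3 without the ITD598 array, where Prg2 joined. Some of the 125 counts were 0 under every setting. They were members set apart lower on ITD613 or higher on ITD78, and members lower than the 3-array mean on ITD613. Of 158 recomputed differences of members, 14 moved by at least the SD of the 3 like arrays. No difference of at least 1 changed sign, but those of Cpa3 and Prg2 on ITD78 fell to 0 with low values raised. A smaller difference could change sign, as for Ms4a2 on ITD613, from -0.09 to 0.25 with its probe sets averaged. No paired analysis was possible because each construct has 1 array. No depth is known for arrays; values at or below 3.74 limit every member but Fcer1g and Srgn on at least 1 array.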
